A study of Mus musculus with 46 samples.

Results

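The 10 genes of the Bcl2 family studied here were followed through the reprogramming of mouse embryonic fibroblasts (MEF) towards induced pluripotent stem cells (iPSC). They were taken by symbol and comprise 3 guardians, which keep the mitochondrial outer membrane intact (Bcl2, Bcl2l1 and Mcl1), 2 effectors, which form pores in it (Bax and Bak1), and 5 BH3-only genes, whose proteins antagonise guardians or activate effectors (Bcl2l11, Bbc3, Pmaip1, Bid and Bik). All 10 were found among the 37108 genes of the gene table and, after transcripts were summed by symbol, among the 35976 genes of the table that holds the iPSC. The rule itself uses symbols and no measured value, but it was set with earlier results of these data known.

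The cells came from OG2 mice, which carry a GFP reporter under Oct4 control, and every transduced group received retroviral Oct4 together with a form of Nanog. In the combination named NanogN70+Oct4 in the labels, called NanogBiD here, Nanog carried at its N-terminus the part of SS18 that contacts BRG1, the ATPase of the BAF chromatin remodeling complex. In the combination named Nanog+Oct4, called NanogWT here, Nanog was native. RNA was sequenced on 8 days between the end of infection (D0) and day 12 (D12), namely D0, D1, D3 and D5, then D7 and D8, then D10 and D12, in 2 libraries for each combination and day except NanogBiD D8, which has 1. The 31 time-course libraries came from unsorted cultures, so a gene's level is an average over converting and non-converting cells, and fewer cells of a type cannot be told apart from less RNA per cell. The series also holds 2 MEF libraries, 1 library of OG2 mouse embryonic stem cells (mES) and 12 iPSC libraries, 6 for each combination, spread over the lines iPSC1 and iPSC2. Line and passage number largely go together in the iPSC headers, so a line difference cannot be told apart from one of passage. Within iPSC1, NanogWT samples 1-2 and 2 are at a later passage than the other iPSC1 libraries of both combinations. Per the paper's methods, cells were moved after D7 from a reprogramming medium to the medium in which mES and iPSC were kept. MEF were grown with serum. Stage and medium therefore cannot be told apart in D12 against D0 or in iPSC against MEF. The labels do not say whether libraries with the same day and combination came from separate infections, or whether iPSC libraries of the same line are independent. The p-values therefore describe only the spread between these libraries.

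The Bcl2 family decides whether a stressed cell releases cytochrome c from its mitochondria and activates caspases. Guardians hold Bax, Bak1 and the BH3-only proteins in check, and BH3-only members respond to several kinds of stress. Pmaip1 (Noxa) and Bbc3 (Puma) are targets of p53, Bcl2l11 (Bim) responds to loss of survival signals, and the Bid protein is cut by caspase-8. Embryonic stem cells are known to stand close to the apoptotic threshold, and Mcl1 is needed by the early embryo.

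What ties the 10 proteins together is the BH3 motif, whose core is a leucine followed after a short gap by a small residue, glycine or alanine, and an aspartate. The coding sequence of this core in 9 members, taken from the GENCODE transcripts of mm10, is given below with the codons of those residues in capitals. The window was the same 30 bases around the core in each gene. Bcl2l11 and Bbc3 were the closest pair, with 21 of 30 bases alike, and over all 36 pairs the count of identical bases ran from 12 to 21.
Bcl2: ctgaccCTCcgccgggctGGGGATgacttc
Bcl2l1: caagcgCTGagagaggcaGGCGATgagttt
Mcl1: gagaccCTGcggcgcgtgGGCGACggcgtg
Bax: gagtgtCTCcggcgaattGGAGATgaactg
Bak1: cggcagCTTgctctcatcGGAGATgatatt
Bcl2l11: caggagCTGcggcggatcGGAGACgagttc
Bbc3: gcccagCTGcggcggatgGCGGACgacctc
Bid: agacatCTCgcccaaataGGCGATgagatg
Bik: ttgaggCTGgcctgcatcGGCGATgagatg

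In 8 of the 9 windows the small residue was glycine, and in Bbc3 it was alanine. Each window lay within a single coding exon: exon 1 at chr1:106712578-106712607 for Bcl2 (minus strand), exon 2 at chr2:152829700-152829729 for Bcl2l1 (minus strand), exon 1 at chr3:95659430-95659459 for Mcl1 (plus strand), exon 3 at chr7:45466000-45466029 for Bax (minus strand), exon 4 at chr17:27022534-27022563 for Bak1 (minus strand), exon 3 at chr2:128147144-128147173 for Bcl2l11 (plus strand), exon 3 at chr7:16313767-16313796 for Bbc3 (plus strand), exon 4 at chr6:120897292-120897321 for Bid (minus strand) and exon 3 at chr15:83543078-83543107 for Bik (plus strand). The motif was carried by 2 of 2 coding transcripts of Bcl2, 7 of 8 of Bcl2l1 and 1 of 3 of Bbc3, so a gene's FPKM can include transcripts without it. The open reading frame of Pmaip1 holds 2 such cores, and its sequence is not printed here.

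Relative depth, read from the smallest step between values, was 0.872 to 1.10 times the median of the D0 to D7 libraries in those days, 0.811 to 1.02 in NanogBiD from D8 on, and 1.85 to 3.18 in NanogWT from D8 on. From D8 on, depth and combination therefore cannot be told apart, and low values are more precise in NanogWT. The 8 fibroblast markers summed to 5864 and 6757 FPKM in MEF, the 8 pluripotency markers to at least 2693 FPKM in every iPSC library except NanogBiD iPSC clone 9 (1839 FPKM), and keratinocyte markers to at most 1.04 FPKM in the gene table. The 2 NanogWT D0 libraries stood apart from each other: the difference between combinations at D0 was called for 128 genes, and for 654 when replicate 2 of NanogWT D0 was left out. Of the members, 9 passed the filter on low values, at least 1 FPKM in at least 2 libraries, and Bik did not. A gene is called when limma's p-value, adjusted over all genes tested, is below 0.05 and the difference on the log2(FPKM + 1) scale is at least 1, that is 2-fold. This scale understates the change of low genes such as Bcl2.

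Per length, in the gene table, Mcl1 was the highest of the 10 members in all 16 groups of the time course and Bik the lowest in all 16. Bax and Bak1 ranked between 2 and 4 of 10. Pmaip1 moved most, between rank 2 and rank 8. Single libraries gave 50.4 to 120 FPKM for Mcl1, 24.4 to 68.5 FPKM for Bax and 17.9 to 59.7 FPKM for Bak1, whereas Bcl2 spanned 0.933 to 7.63 FPKM.

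Bcl2, the founding guardian, fell with NanogBiD and was not called changed with NanogWT. With NanogBiD the D0 libraries had 5.40 and 5.57 FPKM, those of D1 2.59 and 3.03, of D3 2.10 and 2.69, of D5 3.11 and 3.13, of D7 3.48 and 3.57, the D8 library 1.69, those of D10 1.33 and 1.86, and of D12 0.933 and 1.10. With NanogWT the D0 libraries had 2.80 and 4.90 FPKM, those of D1 2.22 and 3.47, of D3 4.69 and 4.39, of D5 5.48 and 4.88, of D7 6.00 and 5.82, of D8 5.97 and 7.63, of D10 4.84 and 4.64, and of D12 3.61 and 3.81. From D3 on every NanogWT library was above every NanogBiD library of the same day. The mES library had 0.112 FPKM, and MEF had 1.85 and 2.02 FPKM, so all 4 D0 libraries were above the uninfected fibroblasts and the mES level was still lower than that of NanogBiD at D12.

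In NanogBiD, Bcl2 fell by 1.69 on the log2(FPKM + 1) scale from D0 to D12 (SE 0.186, adjusted p = 2.0e-07), while in NanogWT the difference was -0.01 (SE 0.186, adjusted p = 0.98). At D7 against D0 the differences were -0.52 in NanogBiD (adjusted p = 0.029) and 0.55 in NanogWT (adjusted p = 0.025), both under 2-fold. The change from D0 itself differed between the combinations by -1.07 at D7 (SE 0.263, adjusted p = 0.0085) and by -1.68 at D12 (SE 0.263, adjusted p = 5.9e-05). Compared day by day, Bcl2 was lower with NanogBiD at D10 (log2 difference -1.15, SE 0.186, adjusted p = 3.0e-05) and at D12 (log2 difference -1.22, SE 0.186, adjusted p = 1.9e-05). At D3, D5 and D7 the log2 differences were -0.71, -0.58 and -0.61 with adjusted p of 0.018, 0.037 and 0.018, which is under the 2-fold limit. After a trend over GC content and transcript length was removed from each library, the D10 and D12 differences became -0.96 and -0.94 with adjusted p of 5.4e-06 and 8.5e-06, just under the 2-fold limit, and the D7 difference in change became -0.75. The latter also lost its call without replicate 1 of NanogWT D0, where it was -0.75 as well, and in a fit to the 4 compared groups alone.

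At D12 markers of the starting cells differed between combinations in the same direction as Bcl2. In NanogBiD D12, 7 of the 8 fibroblast markers were at 1 FPKM or more in both libraries and S100a4 was at 0, and in NanogWT D12 all 8 were. The summed fibroblast markers were 242 and 381 FPKM in NanogBiD at D12 and 2262 to 2864 FPKM in NanogWT at D12, and the pluripotency markers were 1262 to 2273 FPKM against 159 to 227 FPKM. Within NanogWT the fibroblast markers summed to 2011 to 2473 FPKM at D0 and to 528 to 594 FPKM at D7, where Bcl2 was at 6.00 and 5.82 FPKM. In MEF the fibroblast markers were higher than in NanogWT D12, and Bcl2 was lower. In unsorted cultures these sums do not separate the number of fibroblasts from marker RNA per cell. The part of the marker levels in the Bcl2 difference was not tested.

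**Figure D1:**
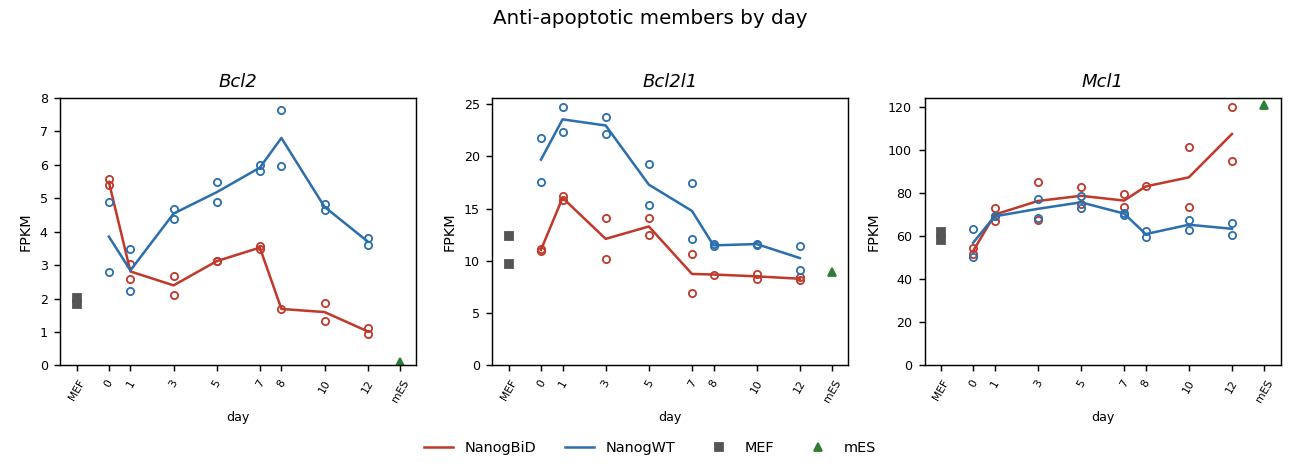
FPKM (y axis) of the 3 guardians by day (x axis), with each time-course library as an open circle, lines through the group means, and MEF and mES libraries at the left and right ends. Bcl2 of NanogBiD ends at 0.933 and 1.10 FPKM and that of NanogWT at 3.61 and 3.81 FPKM, while Mcl1 of NanogBiD ends above all NanogWT libraries.

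Mcl1, a short-lived guardian that binds Bak1 and Pmaip1, took the other course. NanogBiD libraries gave 51.6 and 54.5 FPKM at D0, 79.4 and 73.5 at D7, then 101 and 73.3 at D10, and finally 120 and 94.6 at D12. NanogWT libraries gave 63.4 and 50.4 FPKM at D0, 70.0 and 70.9 at D7, then 62.9 and 67.6 at D10, and finally 66.2 and 60.6 at D12. The mES library had 121 FPKM and MEF 62.1 and 58.3 FPKM, so both NanogBiD D12 libraries lay between MEF and mES. The log2 difference from D0 to D12 was 0.99 in NanogBiD (SE 0.156, adjusted p = 1.7e-05), just short of 2-fold, and 0.16 in NanogWT (SE 0.156, adjusted p = 0.45). The difference between these changes was 0.83 (SE 0.22, adjusted p = 0.0059), and NanogBiD exceeded NanogWT at D12 by 0.74 (SE 0.156, adjusted p = 0.00054). None of these reached the 2-fold limit in the analysis as designed. The D0 to D12 difference in NanogBiD did when values were rescaled to a common total, when they were quantile normalized, with a pseudocount of 0.1, and without replicate 2 of D0 or of D12, with the log2 difference between 0.78 and 1.16 over all alternatives.

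Bcl2l1, which encodes Bcl-xL, was lower with NanogBiD from the outset. At D0 it was at 11.17 and 10.96 FPKM with NanogBiD and at 21.8 and 17.6 FPKM with NanogWT. At D3 the libraries gave 14.1 and 10.2 against 23.8 and 22.2 FPKM, at D7 10.6 and 6.89 against 17.4 and 12.1 FPKM, and at D12 8.15 and 8.44 against 11.4 and 9.16 FPKM. The libraries of the 2 combinations did not overlap on these days, but the gap narrowed as NanogWT came down. The log2 differences were -0.77 at D0 (adjusted p = 0.038), -0.89 at D3 (adjusted p = 0.004), -0.70 at D7 (adjusted p = 0.0082) and -0.27 at D12 (adjusted p = 0.24), all under 2-fold. Uninfected MEF had 9.72 and 12.4 FPKM, close to NanogBiD D0, whereas NanogWT D0 exceeded MEF by 0.78 (SE 0.191, adjusted p = 0.0061).

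The guardians' summed FPKM went from 68.2 and 71.0 at D0 to 129 and 104 at D12 in NanogBiD and from 88.0 and 72.9 to 81.2 and 73.5 in NanogWT. Mcl1 made up 75.7% and 76.7% of the guardians' summed FPKM in NanogBiD at D0 and 90.8% and 93.0% at D12, against 69.1% and 72.1% and then 81.5% and 82.4% in NanogWT. In mES the share was 93.0%. The ratio of summed guardians to summed effectors was 1.87 and 1.96 in NanogBiD at D12, above the 1.04 and 1.38 of NanogWT at D12, the 0.789 and 0.875 of MEF and the 1.35 of mES. These shares and ratios describe RNA levels in the gene table alone and were given no test. In the table that holds the iPSC, Bax was above Mcl1 in the same MEF and mES samples, so such ratios depend on the table.

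Neither effector was called between combinations on any replicated day. Bax was at 42.2 and 41.0 FPKM with NanogBiD and at 68.5 and 30.1 FPKM with NanogWT at D0, and at 39.2 and 28.4 against 40.5 and 24.8 FPKM at D12. Replicates of Bax were often further apart than the combinations, and its log2 differences between combinations lay between -0.19 and 0.41 over the 7 replicated days, none with an adjusted p under 0.05. With an SE of 0.33, the 95% interval at D12 ran from -0.62 to 0.76, so smaller differences could not be detected at this spread.

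Bak1 was at 26.0 and 17.9 FPKM in NanogBiD at D0, below the 51.4 and 35.3 FPKM of NanogWT at D0 and the 43.3 and 53.7 FPKM of MEF. The difference between combinations at D0 was -0.95 (SE 0.277, adjusted p = 0.088), and it was called only without replicate 2 of NanogWT D0 (-1.21). Against MEF, NanogBiD D0 was lower by 1.12 (log2 difference -1.12, SE 0.275, adjusted p = 0.004). That call was lost without replicate 2 of NanogBiD D0, without replicate 2 of MEF and after removal of the GC and length trend, where the difference was -0.83. By D1 NanogBiD had 48.4 and 44.6 FPKM and NanogWT 50.2 and 46.6 FPKM, and from then on no difference in Bak1 between combinations passed the test. The libraries were nevertheless apart on several days: NanogBiD was higher at D5 (58.3 and 57.6 against 42.2 and 47.9 FPKM) and lower at D8 (39.8 against 47.7 and 43.5 FPKM), at D10 (37.4 and 28.8 against 43.5 and 42.7 FPKM) and at D12 (26.8 and 27.4 against 37.5 and 28.5 FPKM). Of the exon bases of Bak1, 25.5% are shared with Ggnbp1 on the opposite strand. Overlaps on the opposite strand cover 17.7% for Bid and 6.09% for Bcl2, and one on the same strand covers 12.2% for Bax. Whether counting used the strand is not given in the sources used here, so reads in these stretches cannot be assigned with certainty.

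**Figure D2:**
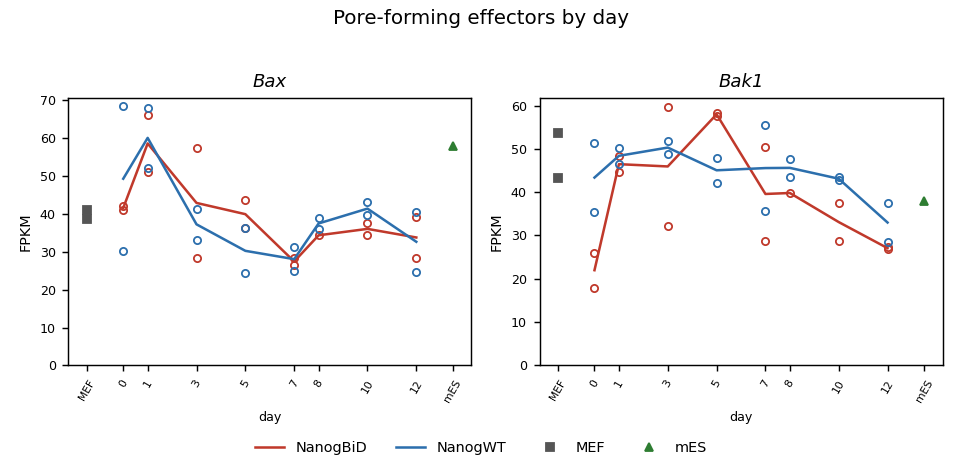
FPKM (y axis) of the 2 effectors by day (x axis), drawn as for the guardians. The libraries of the combinations overlap at D0, D1, D3, D7 and D12 for Bax and at D1, D3 and D7 for Bak1, and the NanogBiD D0 libraries of Bak1, at 26.0 and 17.9 FPKM, lie below those of MEF and NanogWT D0.

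Pmaip1 showed the largest difference between combinations of any member. With NanogBiD the D0 libraries had 15.49 and 13.54 FPKM, those of D1 8.65 and 12.5, of D3 7.14 and 10.1, of D5 15.1 and 20.03, of D7 45.6 and 57.1, the D8 library 68.3, those of D10 28.7 and 17.5, and of D12 10.9 and 10.4. With NanogWT the D0 libraries had 8.73 and 10.0 FPKM, those of D1 5.65 and 7.84, of D3 5.53 and 8.31, of D5 8.35 and 6.72, of D7 4.59 and 6.56, of D8 9.65 and 9.52, of D10 7.00 and 6.56, and of D12 7.06 and 6.603. The highest NanogWT library was at 10.0 FPKM, and the combinations overlapped at D3 alone. MEF had 5.32 and 11.7 FPKM and mES 20.8 FPKM, so the D7 and D8 libraries of NanogBiD were above both ends of the path.

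The log2 difference between combinations was 1.12 at D5 (SE 0.241, adjusted p = 0.0028), 3.00 at D7 (SE 0.241, adjusted p = 2.2e-08) and 1.59 at D10 (SE 0.241, adjusted p = 1.4e-05). At D12 it was 0.57 (adjusted p = 0.054). Within NanogBiD, Pmaip1 rose by 1.75 from D0 to D7 (SE 0.241, adjusted p = 7.7e-06), and at D12 it was at -0.41 against D0 (adjusted p = 0.15). Within NanogWT the D7 value was -0.67 against D0 (adjusted p = 0.033, under 2-fold). The change from D0 to D7 differed between combinations by 2.42 (SE 0.341, adjusted p = 6.7e-05) and the change to D12 by -0.01 (SE 0.341, adjusted p = 0.99). The calls at D7 and D10 held in every alternative that was run, with the D7 difference between 2.78 and 3.22. The D5 call was lost without replicate 2 of NanogBiD D5 or of NanogWT D5, where the lower value was 0.93. Pluripotency markers summed to 100 and 109 FPKM in NanogBiD at D7 and to 2.80 and 3.56 FPKM in NanogWT, and they summed to 419 FPKM in the NanogBiD D8 library, where Pmaip1 was highest, and to 1262 and 2273 FPKM in NanogBiD at D12. The change of medium falls after D7, and the single D8 library of NanogBiD had no replicate.

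**Figure D3:**
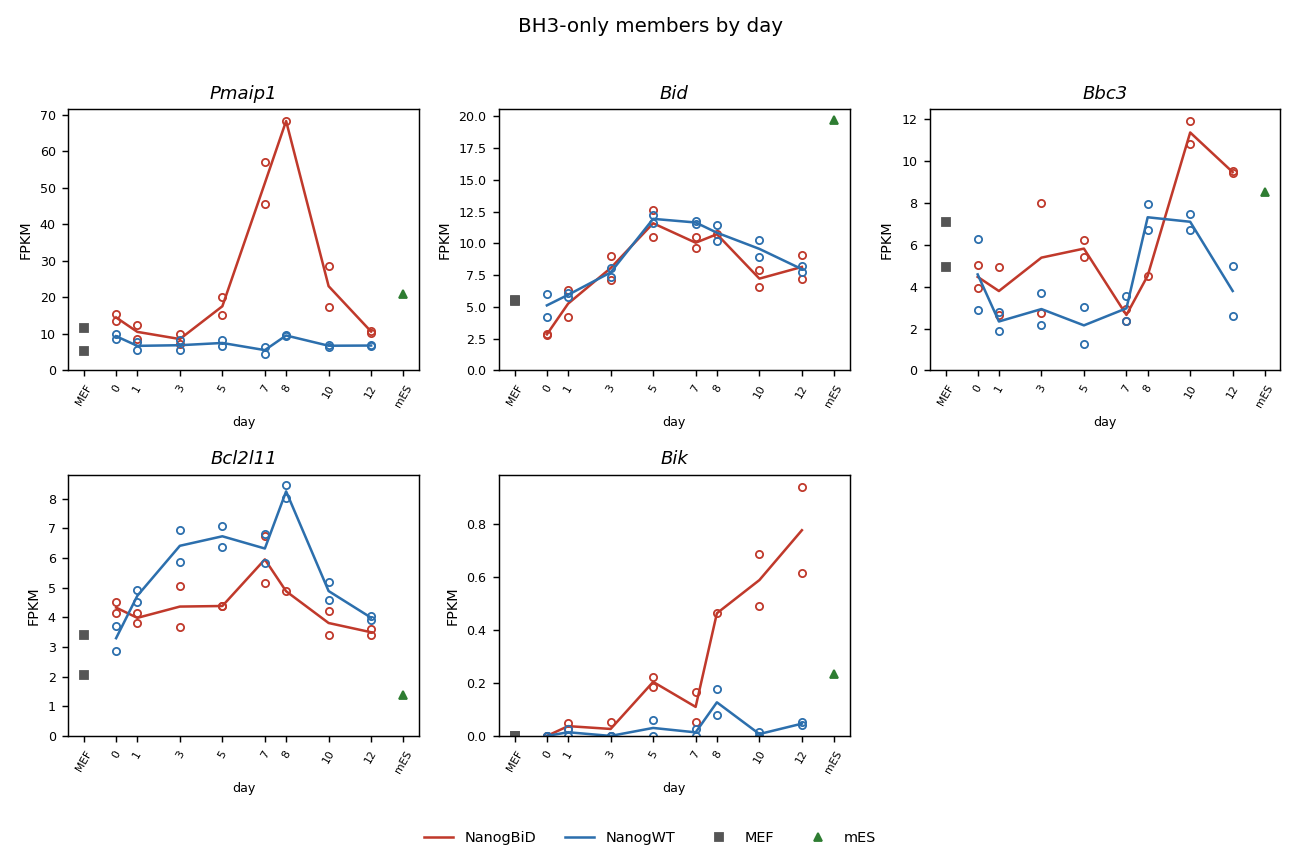
FPKM (y axis) of the 5 BH3-only members by day (x axis), drawn as for the guardians; the y axes differ. Pmaip1 of NanogBiD peaks at 68.3 FPKM at D8 and returns to 10.4 and 10.9 FPKM at D12, Bid rises in both combinations, and Bik stays under 1 FPKM.

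Bid, the link between death receptors and mitochondria, rose with both combinations. NanogBiD libraries went from 2.86 and 2.82 FPKM at D0 to 12.6 and 10.5 at D5, 10.5 and 9.62 at D7 and 9.10 and 7.20 at D12, and NanogWT libraries from 6.04 and 4.21 at D0 to 11.6 and 12.3 at D5, 11.5 and 11.8 at D7 and 8.22 and 7.73 at D12. The rise from D0 to D7 was 1.52 in NanogBiD (SE 0.172, adjusted p = 6.2e-07) and 1.06 in NanogWT (SE 0.172, adjusted p = 5.0e-05), and these changes differed by 0.46 (SE 0.243, adjusted p = 0.23). By D12 the NanogBiD change was 1.24 (SE 0.172, adjusted p = 3.8e-06) and the NanogWT change 0.57 (adjusted p = 0.013, under 2-fold), with a difference of 0.68 (SE 0.243, adjusted p = 0.035, under 2-fold). On no replicated day did the combinations differ by a called amount, and at D0 the log2 difference was -0.66 (SE 0.172, adjusted p = 0.054). The size of the rise depended on scaling: after quantile normalization it was 0.82 at D7 in NanogWT and 0.81 at D12 in NanogBiD, and neither was called. The NanogWT call at D7 was also lost without replicate 2 of NanogWT D0 (0.84).

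Bbc3, the p53 target Puma, was called at D5 and D12, and neither call held in every alternative. NanogBiD libraries gave 5.03 and 3.92 FPKM at D0, 8.03 and 2.76 at D3, 5.41 and 6.24 at D5, 2.95 and 2.36 at D7, then 10.8 and 11.9 at D10, and lastly 9.52 and 9.44 at D12, and NanogWT libraries 6.27 and 2.91 at D0, 2.15 and 3.72 at D3, 1.29 and 3.03 at D5, 3.56 and 2.39 at D7, then 7.49 and 6.72 at D10, and lastly 5.00 and 2.59 at D12. The combinations overlapped at D0, D3 and D7, and also at D1 (4.93 and 2.67 FPKM with NanogBiD against 2.78 and 1.90 FPKM with NanogWT). NanogBiD was above NanogWT at D5, D10 and D12, and below it at D8, with 4.53 FPKM against 6.70 and 7.95 FPKM. Bbc3 was higher with NanogBiD by 1.17 at D5 (SE 0.375, adjusted p = 0.039) and by 1.17 at D12 (SE 0.375, adjusted p = 0.013), and the D10 difference of 0.61 did not pass (adjusted p = 0.18). The D5 call was lost without the filter on low values, after removal of the GC and length trend (0.81) and without any 1 of 3 libraries (replicates 1 and 2 of NanogBiD and replicate 1 of NanogWT), where the lowest value was 0.76. The D12 call was lost without either replicate of NanogBiD or replicate 2 of NanogWT, with a lowest value of 0.80. At 68.6% GC, Bbc3 has the highest GC content of the 10 members.

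Bcl2l11 stood at 4.16 and 4.50 FPKM in NanogBiD and at 2.87 and 3.72 FPKM in NanogWT at D0, and then at 3.67 and 5.05 against 5.88 and 6.95 at D3, 4.37 and 4.39 against 6.38 and 7.09 at D5, 5.17 and 6.74 against 5.84 and 6.80 at D7, 4.88 against 8.45 and 8.04 at D8, and 3.40 and 3.597 against 3.92 and 4.05 at D12. The NanogWT libraries were above those of NanogBiD on these later days except at D7, where the ranges overlapped. The log2 difference at D5 was -0.52 (SE 0.153, adjusted p = 0.024) and at D3 -0.48 (SE 0.153, adjusted p = 0.056), both under 2-fold. Within NanogWT the change from D0 to D7 was 0.77 (SE 0.153, adjusted p = 0.00044, under 2-fold). Summed muscle markers were 40.6 to 90.5 FPKM in NanogWT and 6.02 to 19.0 FPKM in NanogBiD over D3 to D8. They were higher with NanogWT at D3, D5 and D8, when Bcl2l11 was, and also at D7, when Bcl2l11 overlapped. At D12, when Bcl2l11 was again higher with NanogWT, the summed muscle markers overlapped (7.22 to 9.64 against 5.78 to 8.44 FPKM). The part of these markers was not tested. Of these 4 markers, Myod1 and Myog were at 0 in every NanogWT library of these days.

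Bik, an endoplasmic reticulum BH3-only gene, was too low for the test but not evenly so. Its value was listed at 0 in 13 of the 34 libraries of the gene table, including both MEF libraries and all 4 D0 libraries, and in the other 21 it was a whole multiple of the smallest step to within 0.0131 of a step, so that it can be read as fragments. At D12 the NanogBiD libraries had 0.937 and 0.613 FPKM, worth 29 and 21 fragments, and the NanogWT libraries 0.0412 and 0.0512 FPKM, worth 5 and 4 fragments at 3.18 and 2.05 times the reference depth. At D10 NanogBiD had 24 and 17 fragments (0.686 and 0.489 FPKM) and NanogWT 1 and 0. At D8 the NanogBiD library had 18 fragments (0.462 FPKM) and the NanogWT libraries 13 and 6 (0.176 and 0.0773 FPKM). The mES library had 8 fragments (0.234 FPKM). When the filter was dropped, the difference between combinations was 0.65 at D10 (SE 0.0708, adjusted p = 1.1e-06) and 0.76 at D12 (SE 0.0708, adjusted p = 2.2e-07) on the log2(FPKM + 1) scale, under 2-fold on that scale because the pseudocount of 1 exceeds every value of Bik.

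**Figure D4:**
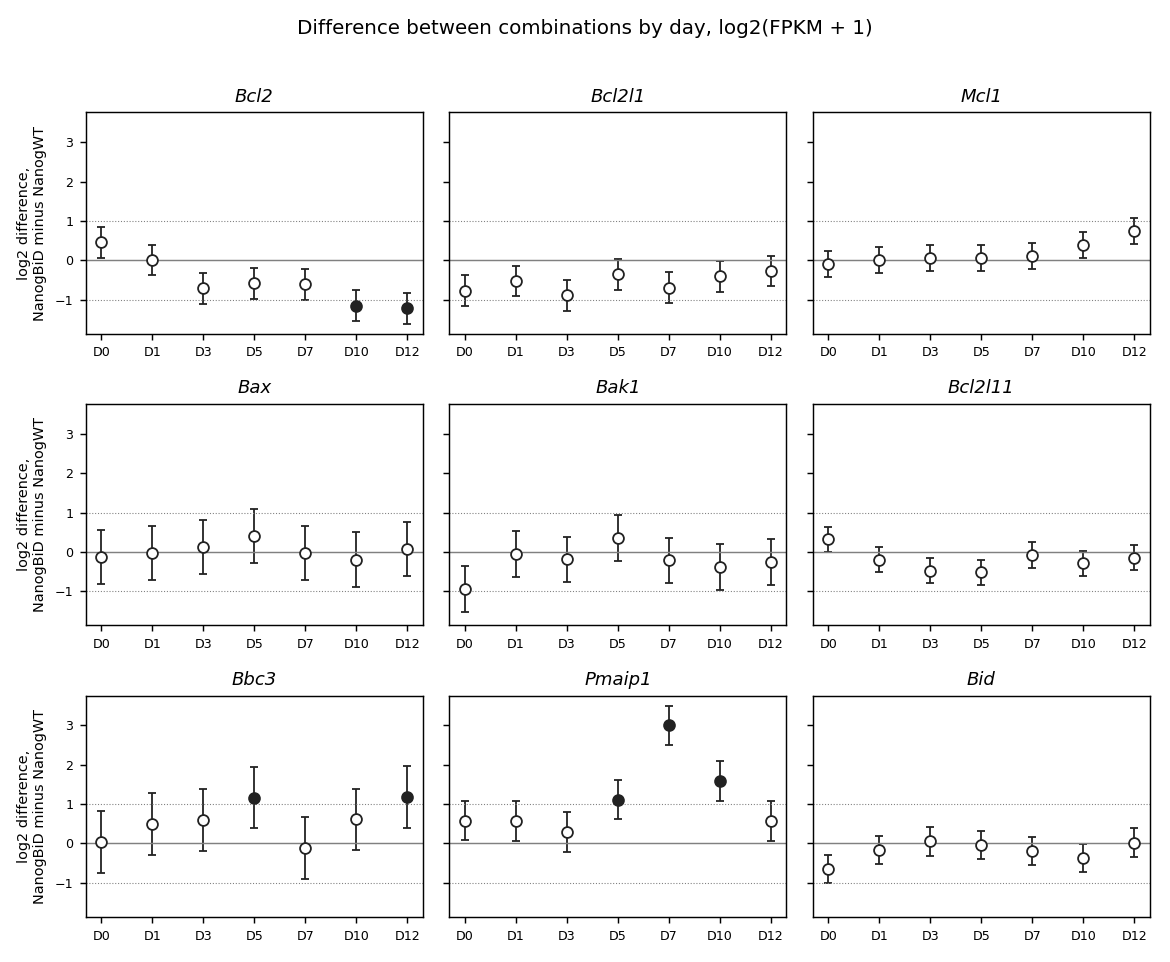
Log2 difference of NanogBiD minus NanogWT on the log2(FPKM + 1) scale (y axis) by replicated day (x axis) for the 9 members tested, with 95% intervals; filled points passed both limits and dotted lines mark 2-fold. Filled points are Bcl2 at D10 and D12, Bbc3 at D5 and D12, and Pmaip1 at D5, D7 and D10.

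Counted over the 9 members tested, none was called between combinations at D0, D1 or D3, 2 at D5 (Bbc3 and Pmaip1, both higher with NanogBiD), 1 at D7 (Pmaip1, higher), 2 at D10 (Pmaip1 higher, Bcl2 lower) and 2 at D12 (Bbc3 higher, Bcl2 lower). Of all 16842 genes tested, 0.76% were called at D0, 1.33% at D1, 3.7% at D3, 6.48% at D5, 10.4% at D7, 27.8% at D10 and 23.4% at D12. The members' counts from D7 on were therefore near the background share. At an unadjusted p under 0.05, limma gave 5 members at D0, 2 at D1 and 3 at D3, against 2668, 2266 and 3847 of the 16842 genes. The median log2 difference of the members was -0.09 at D0 and -0.11 at D7, against 0.01 and 0.08 for all genes.

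Against D0, NanogBiD had 2 members called at D7 (Pmaip1 and Bid, both higher), where 18.8% of all genes were called, and 2 at D12 (Bid higher, Bcl2 lower), where 34.7% were. NanogWT had 1 called at D7 (Bid, higher), where 17.7% of all genes were called, and none at D12, where 16.2% were. At D12 in NanogWT, 2 members, Bcl2l1 and Bid, had an adjusted p under 0.05 but were under 2-fold. At an unadjusted p under 0.05, limma gave the same 2 members and 7786 of the 16842 genes. The change from D0 differed between combinations by a called amount for 2 members at D7 (Bcl2 and Pmaip1; 10.1% of all genes) and 1 at D12 (Bcl2; 23.9% of all genes). These comparisons share D0 libraries with each other.

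The D0 libraries, taken after infection with Oct4 and a form of Nanog, were set against uninfected MEF. The series holds no group infected without these genes, so infection, their expression and culture cannot be told apart. NanogBiD D0 differed from MEF in 2 members, Bcl2 (higher, 1.15, SE 0.183, adjusted p = 8.5e-05) and Bak1 (lower), with 11.4% of all 16915 genes called. Under the 2-fold limit, Bid (-0.76, adjusted p = 0.0019), Pmaip1 (0.79, adjusted p = 0.041) and Bcl2l11 (0.54, adjusted p = 0.022) also had an adjusted p under 0.05, so the rise of Bid in NanogBiD started from 2.86 and 2.82 FPKM at D0, below the 5.53 and 5.48 FPKM of MEF. NanogWT D0 differed in none by a called amount, with 6.84% of all genes called. Under the 2-fold limit, 2 members, Bcl2 (0.69) and Bcl2l1 (0.78), had an adjusted p under 0.05. At an unadjusted p under 0.05, limma gave the same 2 members and 5318 of the 16915 genes. Both comparisons use the same 2 MEF libraries. The Bcl2 call in NanogBiD became 0.87 and was lost after removal of the GC and length trend. Summed macrophage markers were 49.1 to 138 FPKM in the 4 D0 libraries (3 of 5 at 1 FPKM or more in all) and 3.93 and 7.42 FPKM in MEF (2 of 5), and their part in these differences was not tested.

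The iPSC were measured in a table of transcript FPKM, which was summed by symbol. Levels in it cannot be set beside those of the gene table: Bax in the same MEF samples was 123 and 116 FPKM here and 40.9 and 38.5 FPKM there. The order of the members changed as well. Here Bax was above Mcl1 in MEF, where Mcl1 had 56.8 and 52.4 FPKM, and in mES (172 against 107 FPKM). Again 9 members passed the filter, Bcl2 only through the MEF libraries.

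Bcl2 was nearly silent in iPSC. The 6 NanogBiD iPSC libraries had 0 to 0.324 FPKM with a median of 0.0554 and the 6 NanogWT iPSC libraries 0.016 to 0.235 with a median of 0.106, against 1.49 and 1.75 FPKM in MEF and 0.205 in mES. All 12 were below both MEF libraries, and the log2 difference was -1.23. It is given with no test, because Bcl2 passed the filter only through MEF, the group in which it is high. The highest value came from NanogBiD iPSC clone 9, in which fibroblast markers summed to 1380 FPKM, against 2.45 to 435 FPKM in the other 11 iPSC libraries. The part of these cells in its Bcl2 level was not tested.

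Mcl1 was higher in iPSC than in MEF by 1.24 (SE 0.142, adjusted p = 6.1e-06). NanogBiD iPSC had 104 to 140 FPKM (median 119) and NanogWT iPSC 125 to 181 (median 131), with 56.8 and 52.4 in MEF and 107 in mES, so no iPSC library overlapped MEF. Bid was higher by 1.27 (SE 0.213, adjusted p = 0.00016), at 8.60 to 17.7 FPKM in iPSC, 4.38 and 4.57 in MEF and 13.1 in mES. Apart from Bcl2, then, 2 of 8 members were called between iPSC and MEF, where 40.7% of the 13312 genes tested were. Without NanogBiD iPSC clone 9, Mcl1 and Bid were still called.

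Among the other members, Bax was at 142 to 190 FPKM in iPSC against 123 and 116 in MEF (0.50, SE 0.102, adjusted p = 0.00069) and Bcl2l11 at 1.11 to 3.77 against 5.91 and 3.53 (-0.93, SE 0.2, adjusted p = 0.0011), both under 2-fold. Bcl2l11 was called with a pseudocount of 0.1, when values were rescaled to a common total and without replicate 2 of MEF (lowest value -1.31). Bcl2l1 was at 19.5 to 31.8 FPKM in iPSC and 22.3 and 29.6 in MEF (0.01, 95% interval -0.29 to 0.30), and Bak1 at 42.6 to 55.1 against 49.8 and 61.9 (-0.21, adjusted p = 0.08). Bbc3 was at 11.8 to 25.3 FPKM against 12.0 and 8.65 (0.61, adjusted p = 0.023) and Pmaip1 at 4.51 to 26.4 against 4.25 and 10.0 (0.52, adjusted p = 0.27), the widest spread of any member above 1 FPKM. Bik was at 0 to 0.467 FPKM in iPSC, 0.567 in mES and 0 in MEF.

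**Figure D5:**
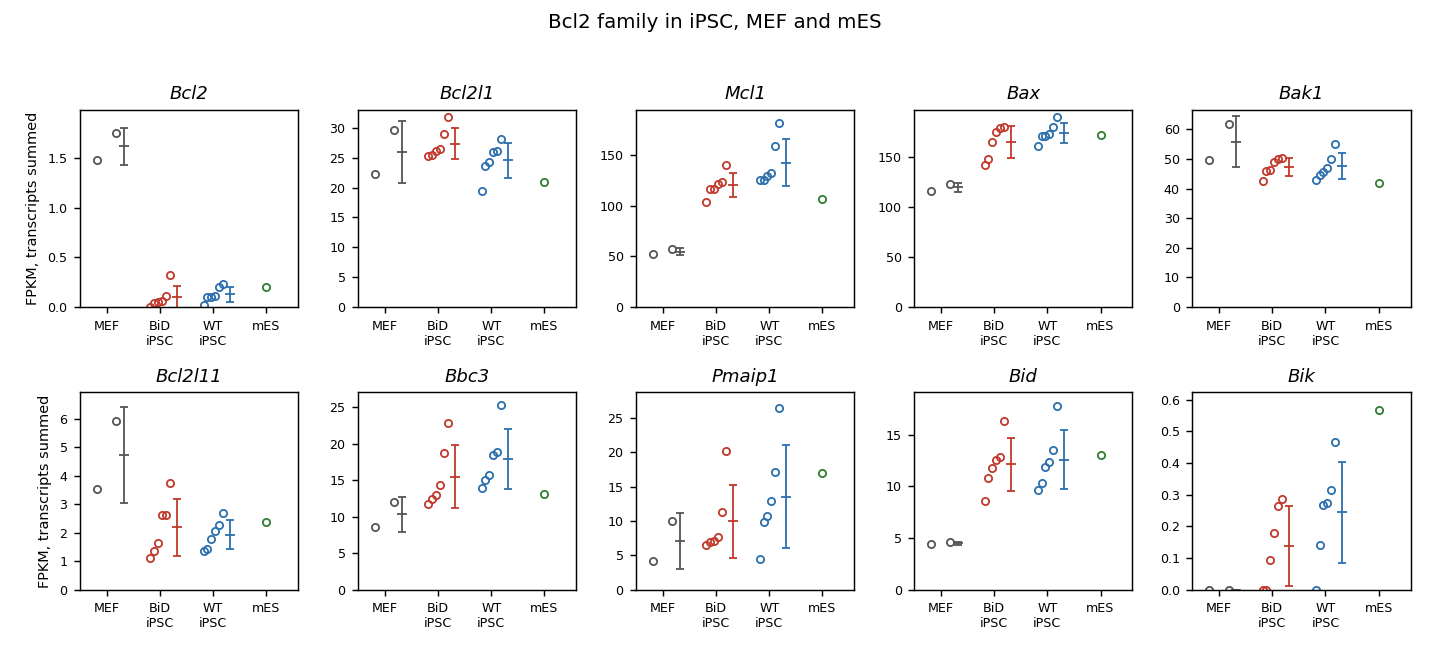
FPKM summed over transcripts (y axis) of the 10 members in 2 MEF, 6 NanogBiD iPSC, 6 NanogWT iPSC and 1 mES library (x axis), each library as a circle with the mean and SD of its group beside it. Bcl2 falls to at most 0.324 FPKM and Mcl1 is at 104 FPKM or more in iPSC, and the iPSC of both combinations overlap for all 10 members.

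Between NanogBiD iPSC and NanogWT iPSC no member was called and 0% of the 13312 genes were. At an unadjusted p under 0.05, limma gave 227 genes in all and 1 member, Mcl1, with a difference of -0.24 (SE 0.11, adjusted p = 1). The differences of the 9 members tested lay between -0.24 and 0.15. For Pmaip1, the least precise, the SE was 0.321. Leaving out clone 9 gave no call either. NanogWT iPSC samples 1 and 1-2 may share a clone by their labels, and averaging them changed no member's call. For the 9 members tested, limma found no change of this difference between the lines iPSC1 and iPSC2, with adjusted p of 0.95 or more. The SE of that test reached 0.641 (Pmaip1), so smaller differences between lines could not be seen. Bcl2 is among the 9 only through MEF.

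In the transcript table, single RefSeq transcripts carried most of Bax (a median of 96.5% of the gene's FPKM over the 12 iPSC), Bak1 (97.9%), Bid (94.4%) and Mcl1 (93.8%). Bcl2l1 was spread more widely, with a median of 56.2% for its leading transcript and 24.1% for the next. Pmaip1 has a single transcript in the table, and 4 of the 6 transcripts of Bik were at 0 in every library.

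The wider apoptosis machinery was summarised by lists of relatives and partners. Of 15 other relatives of Bcl2, 12 were tested: 2 were higher with NanogBiD at D7 and 2 at D12, none lower, where 10.4% and 23.4% of all genes were called. At D10, where 27.8% were, 3 were higher (Bmf, Bnip3 and Bnip3l, the last by 1.17) and 1 was lower (Bad, -1.25), of which Bnip3l and Bad are named after their values were seen. The list's median log2 difference at D12 was 0.05, against 0.17 for all genes. Bmf, a BH3-only gene tied to the cytoskeleton, was at 10.9 and 8.16 FPKM with NanogBiD and 1.55 and 1.205 FPKM with NanogWT at D12 (2.14, SE 0.153, adjusted p = 1.4e-09). Bnip3, a hypoxia target of mitophagy, was at 138 and 140 against 32.3 and 25.4 FPKM (2.24, SE 0.214, adjusted p = 6.2e-08). Hrk, a BH3-only gene best known from neurons, was listed at 0 in all D0 libraries and was at 2.70 and 2.54 FPKM with NanogBiD and 2.24 and 2.54 FPKM with NanogWT at D12, with no separation between the combinations. Bok, a Bax-like effector, fell in both, from 26.9 and 21.4 to 4.32 and 6.15 FPKM at D7 with NanogBiD and from 42.1 and 17.9 to 3.48 and 3.19 FPKM with NanogWT. Bcl2l15 reached 1.24 and 1.86 FPKM at D7 of NanogWT, from 0 and 0.0374 at D0, and 0.221 and 0.448 FPKM at D7 of NanogBiD.

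All 15 apoptosome and caspase genes were tested. At D12 against D0 of NanogBiD, where 34.7% of all genes were called, 1 was higher and 3 lower. The list median was -0.36 against 0.34 for all genes. In NanogWT the list median was -0.05 against 0.19. The 3 lower genes of NanogBiD belong to the death receptor complex, which acts upstream of Bid: Casp8, which cuts Bid, went from 9.42 and 7.83 to 2.43 and 1.61 FPKM (-1.68, SE 0.165, adjusted p = 3.9e-08), Cflar, its inhibitory partner, from 8.83 and 9.96 to 2.82 and 3.32 FPKM (-1.35, SE 0.242, adjusted p = 7.6e-05), and Fadd, its adaptor, from 5.92 and 5.43 to 2.52 and 1.70 FPKM (-1.11, SE 0.262, adjusted p = 0.0011). The mES library had 0.521, 0.446 and 2.95 FPKM. In NanogWT at D12, Casp8 was at 5.01 and 4.39 FPKM (-0.81 against D0, SE 0.165, adjusted p = 0.00059, under 2-fold), Cflar at 9.93 and 9.57 FPKM and Fadd at 5.98 and 4.12 FPKM. Endog, a mitochondrial nuclease, was the gene that rose in NanogBiD, to 18.6 and 13.7 FPKM from 5.82 and 5.56.

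Of 8 inhibitor of apoptosis (IAP) proteins and their antagonists, 7 were tested. Birc5 (Survivin), which also acts in mitosis, was the 1 gene higher with NanogBiD at D7 and D12, where 10.4% and 23.4% of all genes were called. At D12 it was at 14.2 and 12.0 against 5.07 and 4.98 FPKM (1.23, SE 0.2, adjusted p = 4.4e-05). Birc2 rose in NanogBiD from 5.43 and 7.07 FPKM at D0 to 13.6 and 14.4 FPKM at D12 (1.06, SE 0.156, adjusted p = 8.4e-06). Htra2, an IAP antagonist, fell in NanogWT from 26.7 and 12.2 to 7.28 and 5.76 FPKM at D7 (-1.35, SE 0.327, adjusted p = 0.0025).

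Of 14 upstream regulators, 13 were tested. At D12 against D0 of NanogBiD, where 34.7% of all genes were called, 4 were higher and 1 lower. The list median was 0.73 against 0.34 for all genes. In NanogWT, where 16.2% of all genes were called, none was higher and 1 lower. Mdm2, the ubiquitin ligase of p53, fell in both, from 49.8 and 45.1 to 21.7 and 18.2 FPKM with NanogBiD and from 46.8 and 39.3 to 16.7 and 19.7 FPKM with NanogWT. Those higher in NanogBiD at D12 were E2f1, a cell cycle factor, at 29.7 and 25.4 FPKM from 8.08 and 6.89, Mdm4, a p53 inhibitor, at 37.4 and 38.7 from 15.96 and 19.3, Huwe1, a ligase that acts on Mcl1, at 32.4 and 39.0 from 16.2 and 14.0, and Trib3, a stress response gene, at 5.61 and 6.91 from 1.92 and 3.08. Trib3 in MEF was at 68.7 and 40.8 FPKM, above every D0 library.

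Over the 16 group means of the time course, the genes outside the family whose pattern was most like that of a member were Wnt8a (r = 0.94), Meox1 (r = 0.94) and Sprr2a2 (r = 0.94) for Pmaip1. For Bcl2 they were Creb3l2 (r = 0.95), Nr3c1 (r = 0.95) and Klhl29 (r = 0.93), and for Bid Il34 (r = 0.94), Gng3 (r = 0.92) and Coro7 (r = 0.92). For Bcl2l1 they were Sprr2g, Tor4a and Gemin7 (r = 0.91 to 0.92), for Bak1 Capn1, Amdhd2 and Bin3 (r = 0.92 to 0.94), for Bbc3 Txnrd2, Klhl17 and Rxrb (r = 0.89 to 0.91), for Bcl2l11 Hcrtr2, Bace2 and Kctd12 (r = 0.87 to 0.88) and for Bax Cgref1, Khdrbs3 and Fam214b (r = 0.84 to 0.90). Among the members themselves, the strongest relation over the 31 libraries was that of Bcl2 and Mcl1 (r = -0.72), followed by Bcl2 and Bcl2l11 (r = 0.66). Pmaip1 and Bbc3, both p53 targets, had r = 0.12. These values describe shared time courses of libraries from the same cultures and carry no test.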

How the data were processed

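RNA-seq of 31 time-course libraries, 12 iPSC, 2 MEF and 1 mES was used. Per the labels, reads were trimmed with Trim Galore 0.6.4, aligned to mm10 with HISAT2 2.2.1 and quantified with StringTie 2.2.1. The authors deposited FPKM per gene and FPKM per transcript. The annotation, the strand setting and read counts are not given in the sources used here, so depth is known only relative to other libraries, from the smallest step between low values. The labels and the methods name different library kits.

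From these values, log2(FPKM + 1) was fitted in R 4.3.3 with limma 3.58.1 (empirical Bayes with a mean trend) to group means over all time-course groups. The fit against MEF added the 2 MEF libraries, and a separate fit held the 12 iPSC and 2 MEF libraries, with iPSC differences averaged within lines. Genes needed 1 FPKM in 2 libraries. P-values were adjusted by Benjamini-Hochberg over all genes tested. The fit was tested on simulated data with known changes. Named genes were all members, and from each other list up to 5 genes with the largest difference among those called between combinations at D5, D7 or D12 or against D0 at D7 or D12; likeness was the 3 highest Pearson correlations. The members and lists were chosen with earlier results of these data known. Alternatives were another pseudocount, no filter, a common total, quantile normalization, no fold limit, removal of GC and length trends (91.6% of time-course genes had both values), fits to compared groups, a replicate block, and each library left out. For the iPSC, NanogWT samples 1 and 1-2 were also averaged. Coordinates and sequences come from GENCODE on GRCm38 (mm10). Values of GFOLD, which needs reads, were not computed. Some genes of the apoptosome and caspase list are not reported here.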

Additional observations from a re-analysis of the deposited data

Results flagged for a closer look

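In NanogBiD iPSC clone 9, Bcl2 was at 0.324 FPKM, further from the next value of 0.112 FPKM than the spread of its 6-library group allows by Dixon's test (gap over range 0.653). Pmaip1 in the same library was at 20.2 FPKM, with the next library at 11.4 FPKM (gap over range 0.643). Of 20 groups examined, 2 were flagged in this way, and chance flags about 1 in 20.

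The change from D0 differed between NanogBiD and NanogWT by a test of the difference itself for 4 members. For Bcl2 the difference was -1.07 at D7 (limma adjusted p = 0.0085) and -1.68 at D12 (adjusted p = 5.9e-05). For Pmaip1 it was 2.42 at D7 (adjusted p = 6.7e-05). For Mcl1 it was 0.83 at D12 (adjusted p = 0.0059), and for Bid 0.68 at D12 (adjusted p = 0.035), both under 2-fold.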

How the results depend on the processing

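Replicate numbers alone linked libraries of the 2 combinations: deviations of same-numbered libraries correlated between -0.06 (D3) and 0.39 (D7) over the 7 days, so the numbers were not taken to pair them. With the replicate number as a block, 0 of 117 member tests in 13 comparisons changed their call: the counts of members called stayed at 0, 0, 0, 2, 1, 2 and 2 between combinations from D0 to D12. The median log2 change of all genes in NanogBiD from D0 to D12 was 0.34 for FPKM as deposited, 0.43 for a common total and -0.01 after quantile normalization, so rises of that size depend on scaling. With no fold limit, members called between combinations were 1 at D0, 2 at D3, 4 at D5 and 3 each at D7, D10 and D12, against D0 they were 5 (D7) and 4 (D12) in NanogBiD and 4 (D7) and 2 (D12) in NanogWT, between changes to D12 3, for D0 against MEF 5 (NanogBiD) and 2 (NanogWT), and for iPSC against MEF 6 (with Bcl2, which passed the filter only through MEF). Of all 16842 genes, 10387 were called without that limit for D12 against D0 in NanogBiD and 6249 for the change to D12. A count of members in this paragraph with no count of all genes beside it is no result about the members. With GC and length trends removed, 1 was called at D5, D10 and D12 and for the change to D7, and 0 for NanogBiD D0 against MEF. A common total gave 1 at D3 and 4 for D12 against D0 in NanogBiD, where 7038 of 16842 genes were called. Quantile normalization gave 0 for D7 and 1 for D12 against D0 in NanogWT. Without the filter 1 was called at D5, and in the fit to compared groups 1 for the change to D7. Leaving out each library gave 0 to 1 at D0, D3 and D5, 1 to 2 at D12, 0 to 2 for D12 against D0 in NanogWT, 2 to 3 for D7 and for D12 against D0 in NanogBiD, 3 to 4 for iPSC against MEF, 1 to 2 for both changes and for NanogBiD D0 against MEF, and 0 to 1 for NanogWT D0 against MEF. For the 33 member results called as designed or under an alternative other than no fold limit, 452 values under alternatives were compared: 396 kept their direction and side of the limits, 23 lost a call, 32 gained one, and 1 reversed: Bax at D12 against D0 in NanogWT became 0.073 without replicate 1 of NanogWT D0 and -1.09 without replicate 2. Bcl2 in iPSC against MEF is among these 33 results and in the counts for iPSC against MEF. It passed the filter only through MEF, so its 21 of 22 alternatives with the same call are no support. Depth from D8 on differs by combination, and that limit cannot be removed here.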

Other observations

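A predicted RefSeq transcript of Mcl1, which supplied 5.45% to 6.86% of the gene's FPKM in 10 of the 12 iPSC libraries, supplied 51.6% and 44.1% in the 2 NanogWT iPSC libraries of line iPSC2. There it stood at 68.3 and 70.0 FPKM, against 5.65 to 10.8 FPKM in the other 10, 0.92 and 4.09 FPKM in MEF and 6.96 FPKM in mES. The Mcl1 total of these 2 libraries was 132 and 159 FPKM. This was singled out after its values were seen, and it was given no test.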
